A study of Mus musculus with 6 samples.

Results

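The genes described here are 9 members of the complement system and its lectin branch: Masp1, Masp2, C3, C4b, Cfb, Serping1, Cd55, Cd59a and C1ra. They were chosen by name, and Masp1 in addition because it was among the largest falls between the groups, so its values in that comparison are a description with no test. All 9 had rows on the array that name them alone, 129 probe sets in all, out of 20848 genes with a value. Expression was measured on 6 arrays of RNA from 4TO7, a mouse mammary tumour cell line. The Six2 group was 3 arrays of cells with overexpression of Six2, a homeobox transcription factor, and the control group was 3 arrays of cells that carried pcDNA, an expression vector. Both groups share the same line, and no age, sex or drug treatment is given for either. Nothing in the labels says whether the transduced cells were 1 clone or a pool, or whether replicates were separate cultures, and any p-value reflects array-to-array spread alone, some of which may be technical.

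Complement is a cascade of blood and tissue proteins that marks surfaces for uptake and can pierce membranes. It is started by antibodies (the classical pathway), by sugars that collectins and ficolins recognise (the lectin pathway) or by slow spontaneous activation (the alternative pathway), and all branches meet at C3. Most of its soluble proteins are made in the liver, but epithelial and tumour cells also make some of them, and nearly all cells carry regulators that protect them from it. MASP1 and MASP2 are the serine proteases bound to the lectins: MASP1 activates MASP2, which then cuts C4 and C2. The Masp1 gene also gives MASP3, a protease that activates complement factor D, and, in humans, MAp44, a short form without protease activity, by alternative use of exons.

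Values are log2 values made by RMA, a method that corrects background and makes the arrays alike in distribution. A gene's value is the median over its probe sets, and a probe set covers a part of a gene. A difference is the Six2 mean minus the control mean, in log2 units, and SE is the moderated standard error. A gene passed when limma's Benjamini-Hochberg adjusted p over all genes was under 0.05. Over all genes, 14.7% passed, 6.70% higher and 8.02% lower in Six2 arrays. Correlations over genes were 0.992 to 0.994 within the Six2 group, 0.994 within the control group and 0.983 to 0.987 between groups. The endogenous or inserted Six2 gene had 3.60, 3.94 and 4.03 in Six2 arrays and 3.69, 3.25 and 3.62 in control arrays, and differed by 0.33 (SE 0.16, limma adjusted p = 0.215). It passed as higher in 3 of 14 alternatives: at 0.38 with the mean of its 4 probe sets (limma adjusted p = 0.0242), and at 1.19 both with the brightest of them (limma adjusted p = 0.0480) and when dim rows were dropped (limma adjusted p = 0.0271). The species and extent of the insert are not given, so this gene is only a weak check of the labels. Of the 9 markers of mammary epithelial cells, 5 passed as lower, beside 8.02% of all genes, and 4 did not pass. The 5 were Krt8 (-0.56), Krt18 (-0.81), Krt7 (-2.27), Krt19 (-1.24) and Cdh1 (-3.16). The 4 that did not pass went both ways: Krt5 (0.71), Esr1 (0.39), Krt14 (-0.032) and Epcam (-0.75). Krt8 averaged 11.8 in Six2 arrays and 12.3 in control arrays, while Krt5, Krt14 and Epcam were below 4.5 in both groups. These are bulk samples, so fewer cells that express a gene and less RNA per cell cannot be told apart.

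RefSeq promoter sequence (build GRCm38.p6) was available for 5 of the 9 members: C3, Masp2, Cd55, Cd59a and C1ra. The 250 bases before the start of transcription are printed for C3 and Masp2, the tested members that passed, in opposite directions. C3 lies on the minus strand at chr17:57228137-57228386 and Masp2 on the plus strand at chr4:148602294-148602543. Capitals mark matches on either strand to an NF-kB type motif, GGGNNNNNCC, or a C/EBP type motif, TTNNGNAA. NF-kB and C/EBP factors are known to raise C3 transcription in inflammation.
C3: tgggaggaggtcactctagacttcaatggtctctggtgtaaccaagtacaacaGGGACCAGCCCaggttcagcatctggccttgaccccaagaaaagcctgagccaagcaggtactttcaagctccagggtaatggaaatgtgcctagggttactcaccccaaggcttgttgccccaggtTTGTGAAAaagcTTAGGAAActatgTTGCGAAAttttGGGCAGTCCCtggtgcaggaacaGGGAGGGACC
Masp2: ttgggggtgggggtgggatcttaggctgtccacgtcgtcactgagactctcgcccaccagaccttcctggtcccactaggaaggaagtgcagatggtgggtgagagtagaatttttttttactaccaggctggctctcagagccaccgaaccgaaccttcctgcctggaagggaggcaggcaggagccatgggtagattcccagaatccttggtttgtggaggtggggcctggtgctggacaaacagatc

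The C3 window held 3 stretches of each motif, and the C/EBP type stretches sat at 70 to 63, 58 to 51 and 45 to 38 bases before the start. The Masp2 window held neither, the Cd55 window 3 stretches of the NF-kB type, the Cd59a window 1 of that type and the C1ra window 2 of the C/EBP type. Of 32851 windows of the same length, 45.8% held the NF-kB type motif and 36.8% the C/EBP type motif, so single matches are common. A match is only a match of letters, and no binding was measured.

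Masp1 and C3 were much lower in Six2 arrays, Masp2 was slightly higher, and the other 6 members did not pass. Of the 8 members other than Masp1, 1 rose (Masp2) and 1 fell (C3), beside 6.70% and 8.02% of all genes, and the list was put together with earlier results of these data known. Among these 8, all Six2 arrays were below all control arrays in 1, beside 20.1% of all genes, and above them in 1, beside 15.7%. The 6 that did not pass averaged below 4 in both groups. The plot of the 9 genes by array gives these levels.

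**Figure D1:**
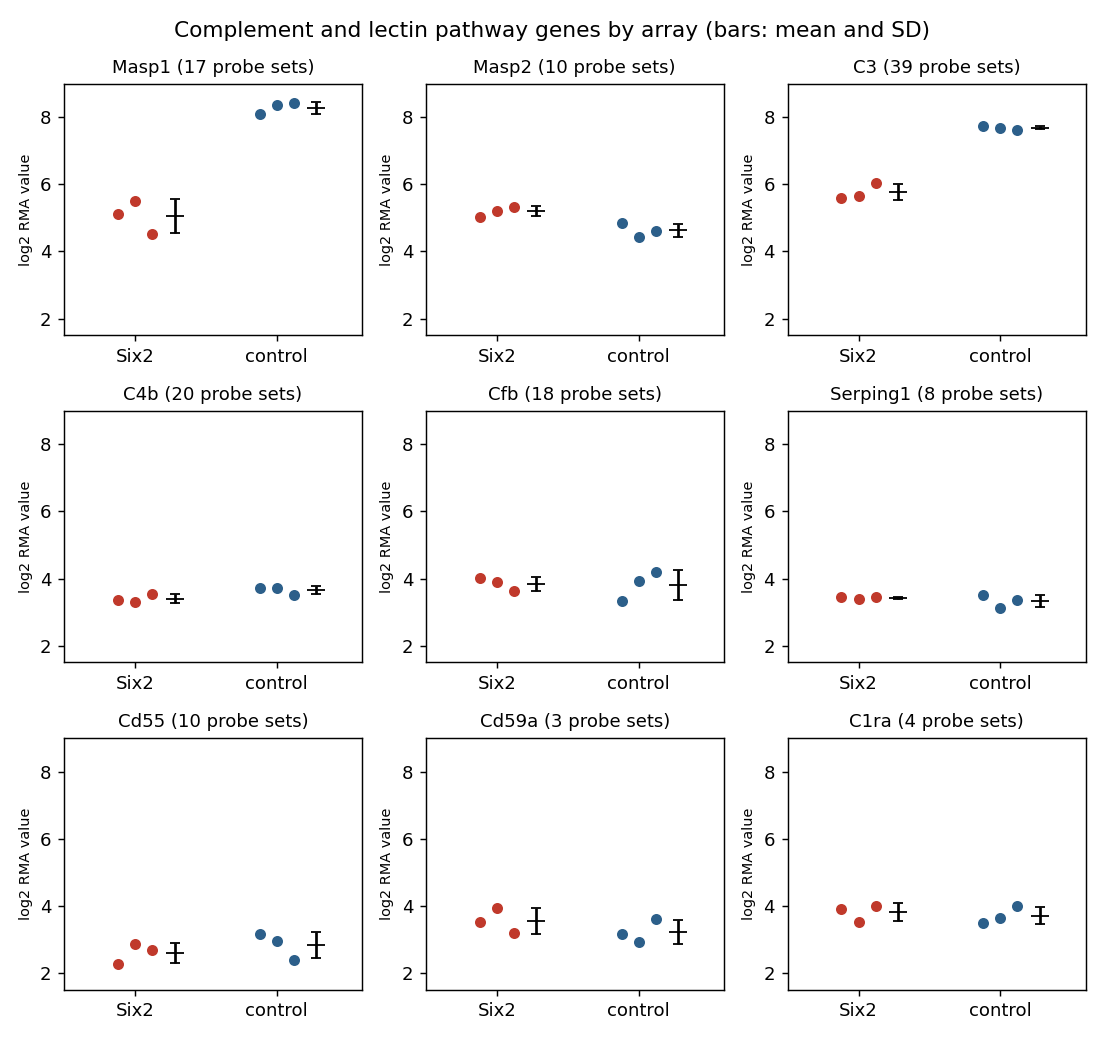
Level of the 9 genes on each array (log2 RMA value, vertical axis), with Six2 arrays in red on the left and control arrays in blue on the right of each panel; bars are the mean and SD of 3 arrays. The groups are apart in Masp1, C3 and Masp2 and overlap in the other 6 genes.

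Masp1 had 5.13, 5.52 and 4.53 in Six2 arrays and 8.08, 8.37 and 8.41 in control arrays. The groups did not overlap, and Six2 replicate 3 was the lowest. The means were 5.06 ± 0.50 in Six2 arrays and 8.29 ± 0.18 in control arrays (SD, n = 3 each), a difference of -3.23 (SE 0.24), or 9.37-fold. This put Masp1 at place 7 from the lowest among 20848 genes, which is what chose it.

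The 17 Masp1 probe sets did not share this difference evenly. In the order of their numbers on the array, the 6 lowest-numbered were dim in both groups, with means of 3.14 to 4.53 in Six2 arrays and 2.71 to 4.54 in control arrays. Their differences ran from -1.04 to 0.88 and the groups overlapped in each of them. The 11 highest-numbered averaged 3.56 to 7.46 in Six2 arrays and 6.02 to 10.2 in control arrays. In all 11 the Six2 arrays were below the control arrays without overlap, with differences from -3.41 to -1.97. Over all probe sets on the array, 15.5% were separated in this direction, a share printed only for scale since the gene was chosen on this contrast.

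The step between the blocks lay between probe sets 10438714 and 10438715. Probe set 10438714 averaged 3.41 in Six2 arrays and 4.45 in control arrays, while 10438715 averaged 3.56 in Six2 arrays and 6.02 in control arrays. The brightest, 10438719, had 7.25, 7.44 and 7.70 in Six2 arrays and 10.1, 10.3 and 10.3 in control arrays. Probe set 10438723 had 7.44, 7.57 and 7.17 in Six2 arrays and 9.98, 10.2 and 10.1 in control arrays. In these bright probe sets the spread among Six2 arrays, with an SD of 0.23 and 0.20, was small beside the differences of -2.75 and -2.70. In 10438721, which had the lowest difference, the Six2 arrays were at 6.13, 5.51 and 4.45 and the control arrays at 8.83, 8.80 and 8.69.

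The median over the 11 highest-numbered probe sets was 5.98, 5.97 and 5.60 in Six2 arrays and 8.83, 8.80 and 8.69 in control arrays, a difference of -2.93 (7.61-fold). Over the 6 lowest-numbered it was 3.88, 3.31 and 3.29 in Six2 arrays and 3.48, 3.35 and 3.88 in control arrays, a difference of -0.077. The blocks were drawn after the values were seen. The gene's own value is sensitive to them: the mean over all 17 probe sets gave -1.83, against -3.23 with the median. Which exon each probe set covers, and so which of the gene's products it would detect, is not given in the sources used here.

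**Figure D2:**
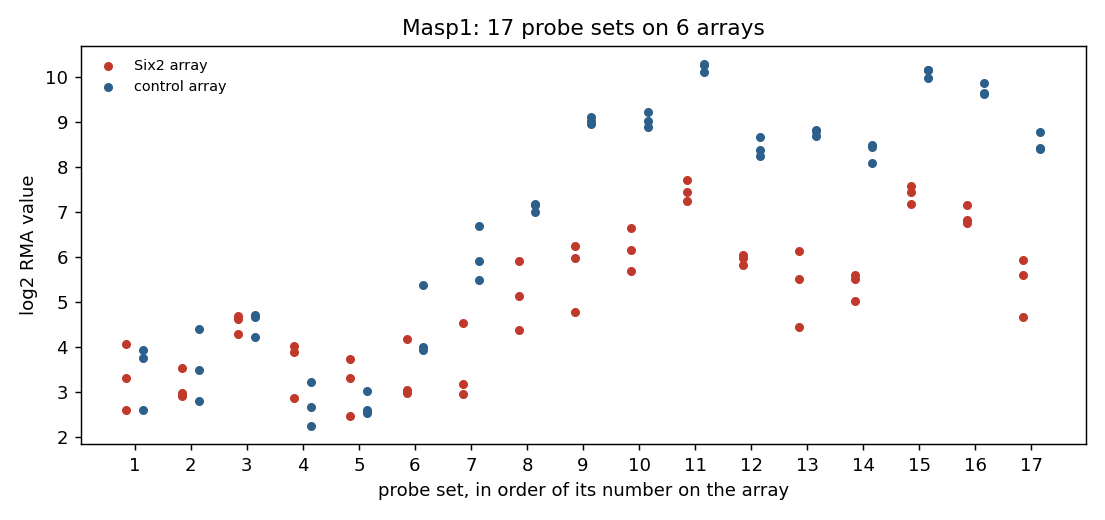
Level of each of the 17 Masp1 probe sets (log2 RMA value, vertical axis) in the order of their numbers on the array (horizontal axis), with 3 Six2 arrays in red to the left of 3 control arrays in blue. Probe sets 1 to 6 are dim and overlap, and in 7 to 17 all Six2 arrays lie below all control arrays.

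Masp1 lies on chromosome 16, and the genes around it differed by less. The 5 measured genes on each side, in the order of the RefSeq table, had differences from -0.79 to 0.33. St6gal1, a sialyltransferase, fell by 0.42 (SE 0.08, limma adjusted p = 0.0160), and Gm6640, measured by 1 probe set, fell by 0.79 (SE 0.18, limma adjusted p = 0.0280). The call of St6gal1 was lost in 7 of 14 alternatives, among them the mean of its probe sets (-0.18), the brightest (-0.074) and chromosome medians subtracted (-0.24), and that of Gm6640 in 6 of 14, among them chromosome medians subtracted (-0.61). The other 8 did not pass: Rfc4 (-0.26), Adipoq (0.33), BC106179 (0.11), Rtp1 (-0.12), Rtp4 (-0.14), Sst (0.092), Rtp2 (0.19) and Bcl6 (0.058). Over all genes, 8.02% passed as lower. Only Rfc4, St6gal1 and Bcl6 among the neighbours had bright signal, with means of 10.3, 8.88 and 7.34 in Six2 arrays and 10.6, 9.30 and 7.28 in control arrays. Genes of chromosome 16 with a mean above 6 had a median difference of -0.18 over 284 genes, with 4 higher and 71 lower.

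**Figure D3:**
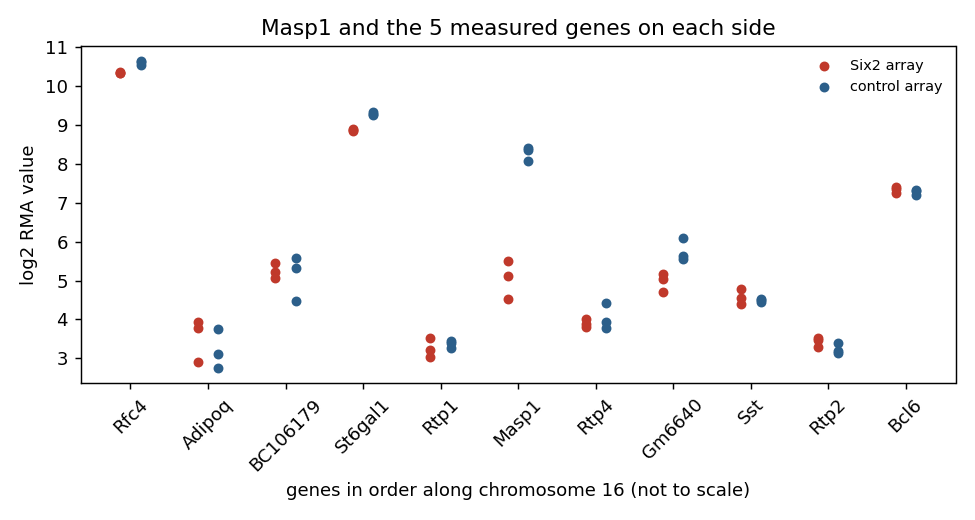
Level on each array (log2 RMA value, vertical axis) of Masp1 and the 5 measured genes on each side of it along chromosome 16 (horizontal axis, order only), with Six2 arrays in red to the left of control arrays in blue. With each gene at the median of its probe sets, Masp1 shows a gap of 3.23 between the group means. The widest gap of a neighbour is 0.79, in Gm6640.

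Among all genes, those nearest to Masp1 over the 6 arrays, after each gene was centred on its own mean, were Cdh1, Ly6a, Pkp1, Cyp1b1 and Selenbp1. Their root mean square distances were 0.28, 0.33, 0.36, 0.36 and 0.37 on the log2 scale. Cdh1, which encodes E-cadherin, was closest, with 4.56, 4.46 and 4.22 in Six2 arrays and 7.69, 7.51 and 7.51 in control arrays. All 5 lie on other chromosomes than Masp1. Nearness here mainly says that a gene differed between the groups by a similar amount, since the 6 arrays are 2 groups.

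Masp2, the protease that cuts C4 and C2, rose by a small amount. It had 5.03, 5.22 and 5.34 in Six2 arrays and 4.83, 4.43 and 4.61 in control arrays. The groups did not overlap, and the difference was 0.57 (SE 0.14, limma adjusted p = 0.0331), or 1.48-fold. Of its 10 probe sets, 8 were above 0, up to 1.47, and 2 below. Of the 10 probe sets, 4 were separated, all with Six2 arrays above, beside 14.6% of all probe sets, and 1 passed alone in limma, beside 1.20%. The call was lost in 6 of 14 alternatives, with adjusted p from 0.0039 to 0.264 over them: without control replicate 2 (0.47), control replicate 3 (0.56), Six2 replicate 2 (0.56) or Six2 replicate 3 (0.50), with the brightest probe set (0.34) and with a replicate block (adjusted p = 0.0840). Another 4 probe sets name both Masp2 and the adjacent gene Tardbp, with differences from 0.23 to 1.63, and were not used.

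C3, the protein on which all pathways converge, fell 3.78-fold. It had 5.60, 5.65 and 6.04 in Six2 arrays and 7.73, 7.69 and 7.63 in control arrays. The groups were far apart, and the spread was larger among Six2 arrays, where the mean was 5.76 ± 0.24, than among control arrays, where it was 7.68 ± 0.047 (SD, n = 3 each). Six2 minus control was -1.92 (SE 0.13, 95% interval -2.23 to -1.61, limma adjusted p = 0.000462). It passed in all 14 alternatives, from -2.06 to -1.002, with adjusted p from 8.86e-06 to 0.0143. The smallest was with the brightest probe set alone.

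All 39 C3 probe sets were lower on average in Six2 arrays, from -3.22 to -0.28 with a median of -1.93. In 35 of them the Six2 arrays were all below the control arrays, beside 15.5% of all probe sets, and in 4 the groups overlapped. The 4 were 10452318, 10452319, 10452328 and 10452339. The first of these was bright, with 7.49, 7.60 and 7.78 in Six2 arrays and 7.98, 7.77 and 7.96 in control arrays, a difference of -0.28. Probe set 10452323, by contrast, had 7.22, 7.07 and 7.06 in Six2 arrays and 9.33, 9.49 and 9.35 in control arrays, a difference of -2.27. By limma over all probe sets, 23 of the 39 fell, beside 1.68% of all probe sets. That count rests on every array: without any 1 of the control arrays limma called 0 of all probe sets, though 31 to 33 of the 39 were lower at an unadjusted p under 0.05, and without 1 of the Six2 arrays 5 to 14 of the 39 were called.

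**Figure D4:**
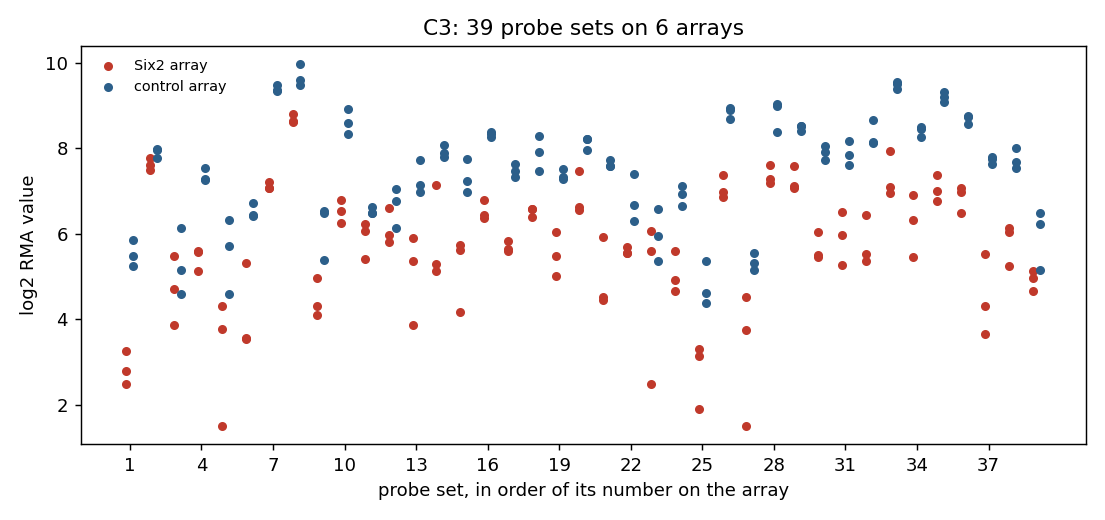
Level of each of the 39 C3 probe sets (log2 RMA value, vertical axis) in the order of their numbers on the array (horizontal axis), with 3 Six2 arrays in red to the left of 3 control arrays in blue. In 35 probe sets all Six2 arrays lie below all control arrays, and in the second, which is bright, they overlap.

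C3, C4b and Cfb all lie on chromosome 17, where genes with a mean above 6 had a median difference of -0.26 over 454 genes, with 7 higher and 154 lower. With chromosome medians subtracted, C3 was at -1.65 (limma adjusted p = 0.000753). For Masp1 the same setting gave -3.05. The part of chromosome shifts in either difference was not tested.

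The remaining early components were dim. C4b, which encodes the C4 that MASP2 and C1s cut, had 3.36, 3.31 and 3.55 in Six2 arrays and 3.73, 3.73 and 3.52 in control arrays. The groups overlapped, and the difference was -0.25 (95% interval -0.51 to 0.0036, limma adjusted p = 0.170). One of its 20 probe sets, 10450248, stood apart as bright, at 9.89, 10.1 and 9.68 in Six2 arrays and 9.61, 9.73 and 9.60 in control arrays. The other 19 had differences from -1.07 to 0.92. C4a is a near copy, and 2 further probe sets name both genes, so the values of C4b are uncertain.

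Cfb, the protease of the alternative pathway, had 4.02, 3.89 and 3.62 in Six2 arrays and 3.32, 3.93 and 4.19 in control arrays. The groups overlapped, and the difference was 0.028 (95% interval -0.51 to 0.56, limma adjusted p = 0.953). Its 18 probe sets ran both ways, from -0.96 to 1.26, with 2 separated in each direction, beside 15.5% of all probe sets with Six2 arrays below and 14.6% above. C1ra, the protease of C1 that activates C1s, had 3.91, 3.51 and 4.00 in Six2 arrays and 3.50, 3.62 and 4.00 in control arrays. Its difference was 0.10 (95% interval -0.32 to 0.52, limma adjusted p = 0.755). It had 4 probe sets of its own, and 9 more name both C1ra and its near copy C1rb, with differences from -1.46 to -0.0076, of which 1 was separated with Six2 arrays below.

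The regulators among the members did not pass either. Serping1 encodes C1 inhibitor, a serpin that inactivates C1r, C1s and both MASPs. It had 3.46, 3.40 and 3.44 in Six2 arrays and 3.51, 3.13 and 3.35 in control arrays, a difference of 0.10 (95% interval -0.17 to 0.37, limma adjusted p = 0.616). Its brightest probe set, 10484470, was at -0.87 (limma adjusted p = 0.198), with 5.07, 4.68 and 5.83 in Six2 arrays and 6.43, 5.84 and 5.93 in control arrays. The sign of this gene therefore depended on the probe sets used. Of its 8 probe sets, 3 were separated with Six2 arrays below, beside 15.5% of all probe sets, and 1 with Six2 arrays above, beside 14.6%.

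Cd55 encodes decay accelerating factor, which takes apart C3 convertases on the cell surface. It had 2.26, 2.85 and 2.67 in Six2 arrays and 3.15, 2.95 and 2.39 in control arrays, a difference of -0.23 (95% interval -0.77 to 0.31, limma adjusted p = 0.551). Cd59a, which blocks assembly of the membrane attack complex, had 3.52, 3.94 and 3.19 in Six2 arrays and 3.15, 2.91 and 3.59 in control arrays. Its difference was 0.33 (95% interval -0.23 to 0.89, limma adjusted p = 0.401). Cd59a had only 3 probe sets, all above 0, and passed with their mean in place of the median (0.44, limma adjusted p = 0.00581). Both genes have near copies, Cd55b at -0.25 and Cd59b at 0.18, which did not pass.

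Beyond the 9 members, the rest of the pathway was mostly dim and did not pass. The lists held 54 complement genes in 8 roles, and 51 had a value. Of the 50 other than Masp1, 2 rose (Cd46 and Masp2), 3 fell (C3, Fcna and Cr2) and 45 did not pass. That is 10% of the 50, beside 14.7% of all genes. Without the 9 members, 1 of 42 rose and 2 fell, or 7.14%. The median difference was -0.061 over the 51 and -0.046 over all genes. Only 5 of the 51 had a control mean above 6: Masp1, C3, Clu, Itgb2 and Cr1l.

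**Figure D5:**
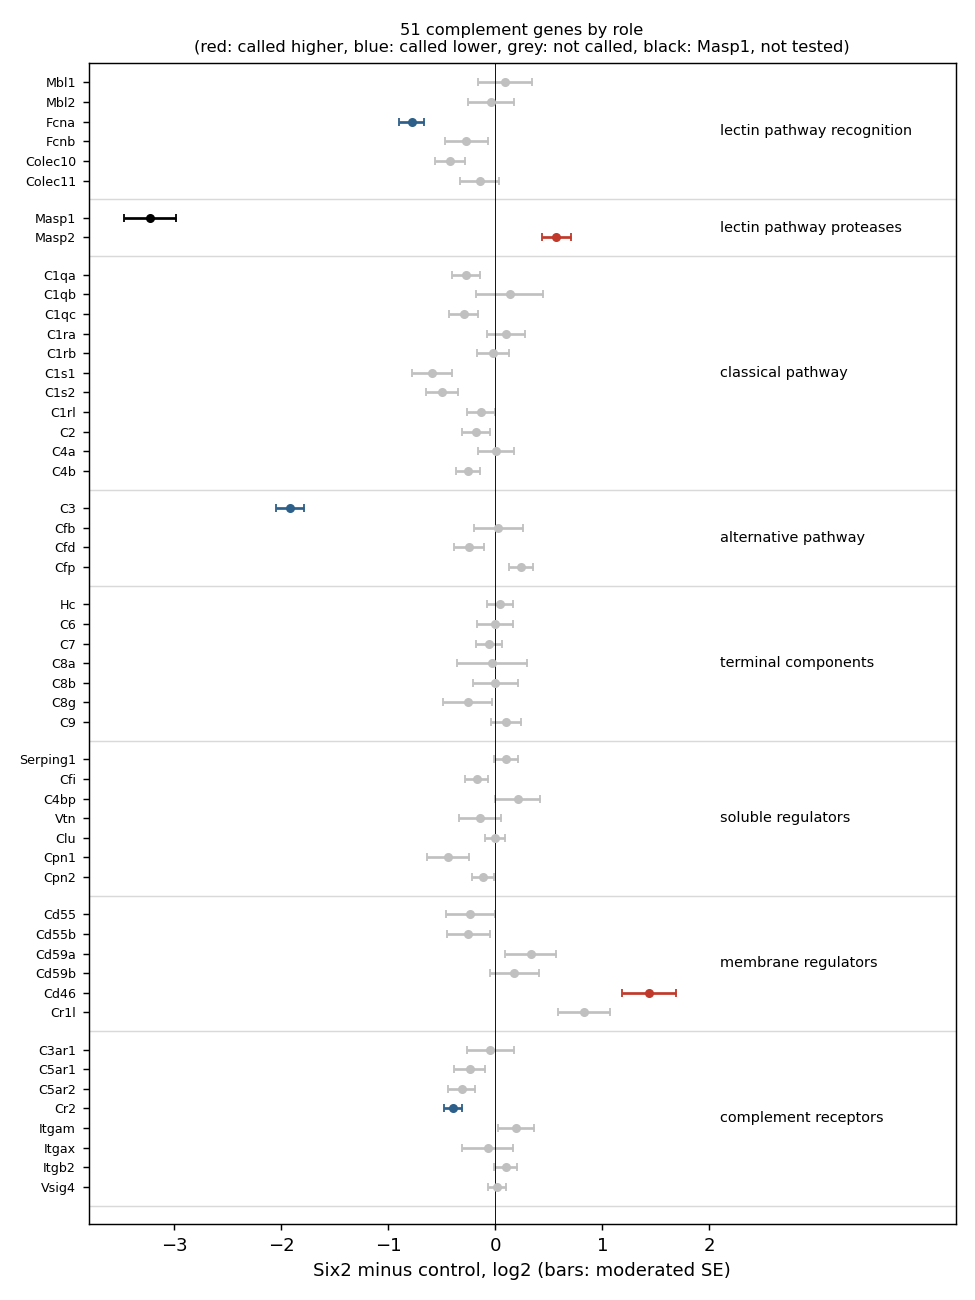
Difference between groups (Six2 minus control, log2, horizontal axis) for the 51 complement genes grouped by role, with moderated SE bars; red genes passed as higher, blue as lower, grey did not pass, and Masp1 in black was not tested. Masp1 at -3.23 and C3 at -1.92 lie far from the others, and 45 genes did not pass.

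Among the 6 recognition molecules of the lectin pathway, Fcna, which encodes ficolin A, fell, beside 8.02% of all genes, and 5 did not pass. Fcna had 4.85, 4.92 and 5.18 in Six2 arrays and 5.81, 5.81 and 5.67 in control arrays. The groups did not overlap, and the difference was -0.78 (SE 0.11, limma adjusted p = 0.00653), or -0.45 with its brightest probe set, where it did not pass (limma adjusted p = 0.281). None of its 13 probe sets passed alone in limma over all probe sets (8 were lower at an unadjusted p under 0.05), and 9 were separated with Six2 arrays below, beside 15.5% of all probe sets. The mannose-binding lectins Mbl1 and Mbl2 were at 0.089 and -0.040, and the collectins Colec10 and Colec11 at -0.42 and -0.15. All Six2 arrays were below all control arrays in 2 of the 6, Fcna and Colec10, beside 20.1% of all genes.

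None of the 11 genes of the classical pathway passed in limma (2 at an unadjusted p under 0.05), with differences from -0.59 to 0.13. The lowest were the C1s genes, near copies of each other, C1s1 at -0.59 (limma adjusted p = 0.0809) and C1s2 at -0.50 (limma adjusted p = 0.0673). These were the 2 of the 11 with all Six2 arrays below all control arrays, beside 20.1% of all genes. The C1s genes lie beside C1ra, C1rb and C1rl on chromosome 6, which were at 0.10, -0.020 and -0.13. All 7 terminal components, led by Hc, which encodes C5, were within -0.26 to 0.10, and 0 passed in limma, also at an unadjusted p under 0.05. Cfd and Cfp, which encode factor D and properdin, were at -0.24 and 0.24.

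The bright fluid phase regulator Clu, which encodes clusterin, had 9.37, 9.39 and 9.48 in Six2 arrays and 9.33, 9.51 and 9.42 in control arrays. Its difference was -0.0046 (95% interval -0.22 to 0.21), so a change of the size seen in C3 lay far outside its interval. Itgb2, the beta chain of complement receptors 3 and 4, was also bright and differed by 0.097 (limma adjusted p = 0.615), while its partner chains Itgam and Itgax were dim in both groups.

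Of the 6 membrane regulators, 1 rose, beside 6.70% of all genes, and 5 did not pass. All Six2 arrays were above all control arrays in 2 of the 6, beside 15.7% of all genes. Cd46, Cr1l, Cd55 and Cd55b among the 6 lie on chromosome 1. Its genes with a mean above 6 had a median difference of 0.44 over 497 genes, with 272 higher and 15 lower. Cd46, membrane cofactor protein, which in mice is known mainly from sperm, had 4.43, 4.87 and 4.71 in Six2 arrays and 3.02, 2.88 and 3.81 in control arrays. It rose by 1.44 (SE 0.25, limma adjusted p = 0.0114), and by 1.00 with chromosome medians subtracted (limma adjusted p = 0.0433). The call was lost with dim rows left out (0.80) and with its brightest probe set (0.20), and none of its 11 probe sets passed alone in limma over all probe sets (6 were higher at an unadjusted p under 0.05).

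Cr1l, which encodes Crry, the broadly expressed mouse regulator of C3 and C4, lies next to Cd46. It had 6.79, 7.06 and 6.92 in Six2 arrays and 5.65, 5.98 and 6.65 in control arrays. The groups did not overlap, but 0.83 (SE 0.24) missed the threshold (limma adjusted p = 0.0631), and control replicate 3 was close to the Six2 arrays. It passed in 4 of 14 alternatives: without that array (1.11, limma adjusted p = 0.0121), with the mean of its probe sets (0.59), with dim rows left out (0.60) and with a variance trend (limma adjusted p = 0.0205). With chromosome medians subtracted it was 0.39 (limma adjusted p = 0.319). The third gene of this neighbourhood, Cr2, the receptor CD21, was dim and fell by 0.40 (SE 0.08, limma adjusted p = 0.0227), a call lost in 10 of 14 alternatives, with adjusted p from 0.00181 to 0.760. With chromosome medians subtracted it fell by 0.83 (limma adjusted p = 0.00181). That setting takes 0.44, a median drawn from chromosome 1 genes with a mean above 6, off the difference. Cr2 was below that level, so its larger fall is the subtraction alone.

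C1 inhibitor and MASP1 also act on proteins of blood clotting, so 35 coagulation and contact system genes were listed, of which 34 had a value. In limma 0 rose (2 were higher at an unadjusted p under 0.05), beside 6.70% of all genes. The 5 that passed all fell, beside 8.02% of all genes, and 29 did not pass. Over both directions together the share was 14.7%, here and over all genes. F2rl1, which encodes the protease-activated receptor PAR2, had 5.04, 5.03 and 5.05 in Six2 arrays and 6.95, 7.27 and 7.23 in control arrays. It fell by 2.11 (SE 0.11, limma adjusted p = 0.000185), with both of its probe sets lower. Procr, the endothelial protein C receptor, fell by 1.29 (SE 0.10, limma adjusted p = 0.000690), Plat, tissue plasminogen activator, by 1.31 (SE 0.14, limma adjusted p = 0.00212), and F5, coagulation factor V, by 1.10 (SE 0.10, limma adjusted p = 0.00116). With the brightest probe set, neither Plat (-0.93) nor F5 (-0.32) passed. F13a1, which encodes a chain of clotting factor XIII, was the fifth, at -0.64 (limma adjusted p = 0.0397), and kept its call in 5 of 14 alternatives. The thrombin receptor gene F2r was bright and differed by -0.095 (limma adjusted p = 0.600).

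Liver cells, leukocytes, fibroblasts and endothelial cells are among the other known makers of complement. Of 6 hepatocyte markers 0 passed in limma, also at an unadjusted p under 0.05, and their mean level was 3.27 to 3.67 in Six2 arrays and 3.36 to 3.62 in control arrays, with Alb at 3.60 in Six2 arrays and 3.13 in control arrays. The 8 markers of macrophages and other leukocytes averaged 3.76 to 3.90 in Six2 arrays and 4.04 to 4.21 in control arrays. Of these, 2 were lower past the threshold, beside 8.02% of all genes: Ptprc (-0.63, limma adjusted p = 0.0488) and Adgre1 (-0.62, limma adjusted p = 0.0259), both dim. Cd68, the brightest of the 8, averaged 6.71 in Six2 arrays and 7.27 in control arrays. Its Six2 arrays were all below its control arrays, as in 20.1% of all genes, but it did not pass (-0.56, limma adjusted p = 0.0851). Lyz2 was at 2.51 in Six2 arrays and 2.60 in control arrays. Of 6 fibroblast markers, 1, Lum, was lower past the threshold (-0.48, limma adjusted p = 0.0188), beside 8.02% of all genes, and 5 did not pass. Their mean levels were 4.42 to 4.63 in Six2 arrays and 4.52 to 4.70 in control arrays. Of 6 endothelial markers 0 passed in limma, also at an unadjusted p under 0.05, with mean levels of 3.32 to 3.39 in Six2 arrays and 3.31 to 3.56 in control arrays. The part of these cell types in the differences of Masp1 and C3 was not tested. The 9 mammary epithelial markers averaged 5.68 to 5.74 in Six2 arrays and 6.48 to 6.63 in control arrays. Of these 9, 5 were lower past the threshold, beside 8.02% of all genes, and their part was not tested either.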

How the data were processed

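The deposited values are log2, and the submitters' processing notes name RMA and Affymetrix Power Tools for them. Which versions, filters and build were used is not given in the sources used here. Of 241576 rows, 213361 had 1 gene symbol in the platform annotation, 5107 several and 23108 none. Old symbols were updated through the RefSeq table (GRCm38.p6), where 20850 of 20893 were found. Groups were compared with limma 3.58.1 in R 4.3.3, per gene (median of its probe sets) and per probe set, with Benjamini-Hochberg adjustment over all genes or all probe sets with 1 symbol. No filter on dim rows was applied, and no detection calls were available. The steps were tested on simulated data. Precision is limited by the number of arrays, 3 in each group. The members, gene lists and tests were chosen with earlier results of these data known. Named genes were the 9 members, the complement genes that passed, up to 4 coagulation genes per direction, the neighbours of Masp1 and the genes nearest to it. F13a1, Cr1l, C1s1, C1s2, Clu and the other genes given as examples were added after their values were seen. The 3 listed complement genes without a value and 1 coagulation gene were not analysed here. No array dates were used, so batch and group cannot be told apart.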

Additional observations from a re-analysis of the deposited data

How the results depend on the processing

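The 14 alternatives covered the summary of probe sets, a filter on dim rows, normalization, centring, variance model, chromosome shifts, a replicate block and each array left out. For 33 named genes other than Masp1, 406 of 461 values kept their side of the threshold and, where past it, their direction, 42 lost and 10 gained a call and 3 turned: Adipoq without dim rows (-0.91) and with its brightest probe set (-1.67), and F13a1 with its brightest probe set (0.030). With the mean of the probe sets, 4858 genes passed in place of 3068, 4 complement genes were higher in place of 2, and Masp1 was at -1.83. With the brightest probe set, limma called 0 complement genes higher (2 at an unadjusted p under 0.05). With Masp1 left aside, it called 1 lower, C3 (6 at an unadjusted p under 0.05), in place of 3. With the replicate block, 1828 genes, 0 probe sets in place of 6132 (42260 at an unadjusted p under 0.05) and 1 higher complement gene passed, and the calls of Masp2 and Cr2 were lost. Same-numbered arrays did not deviate together (correlations of -0.0064, -0.0084 and -0.054, and 0 of 6 arrays matched their own number best), so the number is not treated as a pairing. With a variance trend and robust variance, 19262 probe sets passed. Leaving out 1 array gave 1565 to 2447 genes and 0 to 1008 probe sets (0 without any 1 of the control arrays, 36165 to 42555 at an unadjusted p under 0.05). It gave 1 to 2 higher and, Masp1 left aside, 2 to 4 lower complement genes. The Masp1 difference ran from -3.46 to -2.96. The cause of these changes was not tested. Low signal limits the reading of dim genes, for which no detection calls were used: 36 of the 51 complement genes averaged under 4 in both groups.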
